A study of Mus musculus with 4 samples.

Results

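Levels of mRNA were examined for 48 genes of the histone acetylation, DNA methylation and REST corepressor machinery. The 48 genes were chosen by symbol from the known members of these complexes, with earlier results of these data known. Counts of calls among them are therefore descriptions. All were found among the 52636 gene identifiers counted. All 48 were also among the 19041 genes that passed the filter on low counts and were tested. By role, 10 encode REST and parts of its corepressor complexes, 6 belong to H3K9 methylation, 12 are histone deacetylases, 8 are acetyltransferases or bromodomain readers, 7 write, maintain or remove DNA methylation, and 5 belong to methyl-CpG binding and the NuRD complex.

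RNA-seq was carried out on tdTomato+ cells sorted by FACS from embryonic kidneys 48 h after tamoxifen was started, at about E12.75, with 2 libraries of 5000 cells for each genotype. Control cells carried *Eya1CreER*, a tamoxifen-dependent Cre, and the *R26-tdTomato* reporter, and *Eya1*cKO cells carried *Eya1* fl/fl in addition. Both genotypes were therefore exposed to tamoxifen and to active Cre, and the tdTomato gate holds every cell in which that Cre had acted, not a purified cell type. Cell suspensions were combined before the sort, so the 2 libraries of a genotype are portions of pooled cells and all *P*-values measure the spread between such portions. *Eya1*, which encodes the transcription cofactor and phosphatase removed here, had 6612 and 6420 reads in the controls but 377 and 219 after deletion (log2 fold change -3.60 ± 0.18, SE, edgeR adjusted *P* = 0.00019).

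REST is a zinc-finger repressor that binds the RE1 element and keeps neuronal genes silent outside the nervous system. Its C-terminal corepressor is built on a CoREST protein (Rcor1, Rcor2 or Rcor3), which holds the demethylase Kdm1a (LSD1) together with the deacetylases Hdac1 and Hdac2, and its N-terminal corepressor is built on Sin3. Cdyl bridges REST to the H3K9 methyltransferases Ehmt1 and Ehmt2 (GLP and G9a). DNA methylation is a further layer of silencing: Dnmt1, guided by Uhrf1 to hemimethylated CpG, copies the marks at replication, Dnmt3a and Dnmt3b set new ones, and the TET dioxygenases oxidise them. In the developing kidney, Dnmt1 and the deacetylases Hdac1 and Hdac2 are known to be needed in nephron progenitor cells (NPCs), the self-renewing cells that give rise to nephrons.

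Of the 48 genes, 7 were lower in *Eya1*cKO and 1 was higher, by edgeR's quasi-likelihood test at an adjusted *P* below 0.05. The 7 lower genes, 14.6% of the members against 4.41% of all genes tested, were *Rcor2*, *Uhrf1*, *Kdm1a*, *Dnmt1*, *Hdac2*, *Trim28* and *Mbd3*. *Tet2* alone was higher, 2.08% of the members against 5.15% of all genes. The differences were moderate: the absolute log2 fold change reached 1 in only 1 member, *Rcor2*. The median log2 fold change of the 48 was -0.07, and that of all genes tested was 0.02. Both *Eya1*cKO libraries lay below both controls in 20 members (41.7%, against 30% of all genes) and above both in 12 (25%, against 25.3% of all genes), and the genotypes overlapped in 16. In bulk samples like these, fewer cells of a type and less RNA per cell cannot be told apart.

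**Figure D1:**
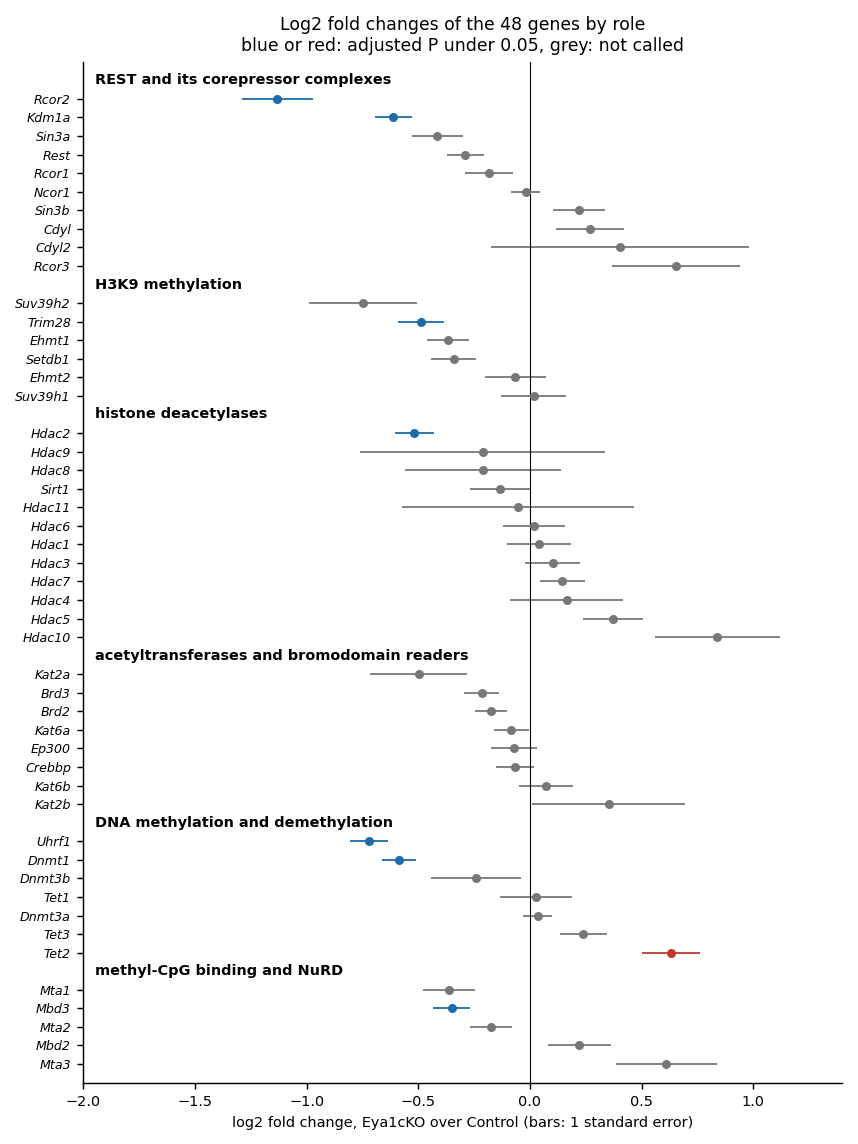
Log2 fold change of *Eya1*cKO over Control for the 48 genes, grouped by role and ordered within each group, with bars of 1 standard error from edgeR. The 7 lower calls (blue) run from -1.13 for *Rcor2* to -0.35 for *Mbd3*, the higher call (red) is *Tet2* at 0.63, and the 40 grey genes did not pass.

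Libraries of the control pair were closer to each other than those of the *Eya1*cKO pair. The median absolute log2 ratio between libraries of a genotype was 0.072 for the 48 genes in the controls and 0.24 in *Eya1*cKO, and the gap was larger in the *Eya1*cKO pair for 41 of 48. The same held over all genes tested with reads in every library. Their medians were 0.16 and 0.49, and the gap was larger in the *Eya1*cKO pair for 13213 of 16812. When either control library was left out, none of the 8 calls remained, and when either *Eya1*cKO library was left out, 19 members were lower and 6 higher, since the spread then came from the remaining complete pair. In those fits 14.8% to 15.5% of all genes tested were lower and 18.7% to 19.8% higher, so calls rose among all genes too. *Mbd3*, *Trim28* and *Tet2* were also lost under the legacy quasi-likelihood method, with libraries thinned to the shallowest total, without the low-count filter and with a replicate block, which left 5 lower calls and 0 higher. *Mbd3* was lost with library totals alone as well, which left 6 lower calls and 1 higher. DESeq2's Wald test and a filter of 10 counts in every library each kept all 8 and added *Rest*, *Sin3a* and *Ehmt1* as lower. The members are abundant genes: 43 lay above the median of the genes tested by control RPKM (reads per kilobase of exon, scaled to library size) and 18 in the top 10%, and the fewest reads of any member in a library was 62.

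Gene counts were 35411905 and 37999342 reads in the controls and 22239293 and 17457452 in *Eya1*cKO, and reads on no feature made up from 12.94% to 13.92% and from 20.9% to 22.69% of the reads recorded. Markers of several cell types moved with genotype. The summed CPM of 13 NPC markers, 11 of them lower, went from 2579 and 2584 in the controls to 882 and 905 in *Eya1*cKO. The markers of podocytes (8 of 8 higher, summed CPM 532 and 538 to 2482 and 2470), endothelium (8 of 8, 623 and 641 to 1120 and 1198), renal stroma (5 of 8, 969 and 972 to 1364 and 1346), adrenal cortex (all 7 tested, 35.9 and 27.1 to 727 and 696) and sympathoadrenal cells (8 of 9, 55.8 and 60.6 to 454 and 497) went the other way. Of the adrenal markers, *Cyp17a1* was at 0 reads in Control 1 and in *Eya1*cKO 1, and no marker of the other lists just named was at 0 in any library. Of 8 ureteric bud markers 2 were lower, *Calb1* and *Ret* (summed CPM 301 and 290 to 199 and 214), while none of the 4 blood and immune or 2 skeletal muscle markers tested was called and the haemoglobin genes *Hbb-bs*, *Hba-a1* and *Hba-a2* were at 0 reads in every library. Among 20 genes of S phase and mitosis, 15 were lower and all 20 had both *Eya1*cKO libraries below both controls (5417 and 5386 to 3566 and 3619; median log2 fold change -0.68). The part of these shifts in the members' values was not tested.

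The sequences just upstream of the start sites were described for members with a promoter entry, called or not. RefSeq promoter entries on GRCm38.p6, the same build as mm10, existed for 40 of the 48 genes and gave 59 windows of 280 bases, from 250 before to 30 after the start. *Rest*, *Hdac1*, *Hdac3*, *Hdac10*, *Cdyl2*, *Kat6a*, *Mbd2* and *Mta3* had none in the table. The median window held 24 CpG dinucleotides and was 67.1% G or C, against 6 and 52.5% over all 32851 windows. The windows of 5 genes are printed 5′ to 3′ along the gene, for the CoREST-complex genes *Rcor2* and *Kdm1a*, the maintenance methylation genes *Dnmt1* and *Uhrf1*, and *Tet2*. For *Dnmt1* and *Uhrf1*, which have several starts, the window richest in CpG is shown. The windows of the called genes *Hdac2*, *Trim28* and *Mbd3* are not printed.
Rcor2, plus strand, chr19:7267144-7267423: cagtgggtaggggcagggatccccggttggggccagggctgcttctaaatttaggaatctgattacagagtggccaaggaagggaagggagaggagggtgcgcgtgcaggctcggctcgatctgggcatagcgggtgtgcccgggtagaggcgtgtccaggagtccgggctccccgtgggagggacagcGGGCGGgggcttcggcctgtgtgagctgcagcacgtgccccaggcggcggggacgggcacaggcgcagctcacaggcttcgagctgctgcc
Kdm1a, minus strand, chr4:136602694-136602973: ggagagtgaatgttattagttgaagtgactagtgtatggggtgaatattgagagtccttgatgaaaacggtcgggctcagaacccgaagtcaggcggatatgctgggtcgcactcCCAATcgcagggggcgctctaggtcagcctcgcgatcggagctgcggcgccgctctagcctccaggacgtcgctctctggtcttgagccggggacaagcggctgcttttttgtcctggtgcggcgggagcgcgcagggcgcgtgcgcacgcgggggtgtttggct
Dnmt1, minus strand, chr9:20952594-20952873: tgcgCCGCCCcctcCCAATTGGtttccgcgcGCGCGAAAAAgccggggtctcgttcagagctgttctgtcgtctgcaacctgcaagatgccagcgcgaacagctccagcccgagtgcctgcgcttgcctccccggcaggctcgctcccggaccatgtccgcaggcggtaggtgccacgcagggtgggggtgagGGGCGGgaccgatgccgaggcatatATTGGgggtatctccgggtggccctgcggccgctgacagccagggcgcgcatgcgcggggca
Uhrf1, plus strand, chr17:56304063-56304342: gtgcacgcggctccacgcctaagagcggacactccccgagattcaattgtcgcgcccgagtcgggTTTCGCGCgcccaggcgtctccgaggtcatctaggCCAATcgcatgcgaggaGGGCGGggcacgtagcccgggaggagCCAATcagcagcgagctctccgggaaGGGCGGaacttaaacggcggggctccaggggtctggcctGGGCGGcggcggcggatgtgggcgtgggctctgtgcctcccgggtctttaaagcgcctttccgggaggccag
Tet2, minus strand, chr3:133544361-133544640: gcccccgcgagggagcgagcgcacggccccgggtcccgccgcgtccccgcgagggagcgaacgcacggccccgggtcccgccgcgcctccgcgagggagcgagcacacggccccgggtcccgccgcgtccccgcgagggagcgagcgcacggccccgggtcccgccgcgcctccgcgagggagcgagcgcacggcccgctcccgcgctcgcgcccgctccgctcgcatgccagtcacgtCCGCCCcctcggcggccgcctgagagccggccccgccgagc
Capitals mark matches, on either strand, to an E2F motif (TTTNNCGC) and a GC box, spelled GGGCGG. The 5-letter CCAAT box was searched and marked in the same way, as were the left part of RE1 (TTCAGCACC) and its right part (GGACAGCGC). Matches of different motifs did not overlap in these 5 windows, and a pair of E2F matches overlap each other in *Dnmt1*. The E2F letters were found in 7 of the 59 member windows (11.9%, against 4.84% of all windows), those of *Dnmt1*, *Uhrf1*, *Ep300*, *Kat2a*, *Sin3b* and *Suv39h1*. A GC box was in 72.9% (all windows 34.7%) and a CCAAT box in 30.5% (36.1%). The left part of RE1 was in 0 member windows (0.335% of all) and the right part in 1, that of *Ep300* (0.371% of all). *Rcor2*, *Tet2* and *Kdm1a* hold no E2F match, *Rcor2* and *Tet2* have 1 GC box each, and *Kdm1a* has a CCAAT box. These matches describe letters in the window and are not evidence of binding.

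Among the 10 genes of REST and its corepressor complexes, the scaffold *Rcor2* and the demethylase *Kdm1a* fell and the other 8 did not pass the test (4.41% of all genes tested were lower). Both *Eya1*cKO libraries lay below both controls in 5 of the 10 and above in 3, against 30% and 25.3% of all genes. *Rcor2* (ENSMUSG00000024968, chr19:7267325-7275225), a CoREST scaffold, had 3933 and 4068 reads in the controls and 1283 and 752 in *Eya1*cKO. Its level was 111 ± 2.82 CPM (SD, n = 2) against 49.8 ± 9.84. The genotypes were far apart, and *Eya1*cKO 2 was the lower of the pair. The log2 fold change was -1.13 ± 0.16 (SE, edgeR adjusted *P* = 0.0082), which is 2.19-fold lower. *Kdm1a* (ENSMUSG00000036940, chr4:136550540-136602723), which removes methyl groups from H3K4, had 10974 and 11208 reads in the controls and 4465 and 3581 in *Eya1*cKO, or 307 ± 10.6 against 201 ± 4.62 CPM. The genotypes were apart and each pair was tight. The log2 fold change was -0.61 ± 0.083 (edgeR adjusted *P* = 0.0074).

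*Rest* itself (ENSMUSG00000029249, chr5:77265491-77286432) had 8780 and 9123 reads in the controls and 4584 and 3540 in *Eya1*cKO. In CPM this was 248 ± 5.51 against 202 ± 0.755, so both *Eya1*cKO libraries lay below both controls by more than the spread of either pair. Its log2 fold change of -0.29 ± 0.083 missed the threshold over all genes (edgeR adjusted *P* = 0.077). Over the alternatives the adjusted *P* ran from 0.0031 to 0.71, and the log2 fold change from -0.33 to -0.25. *Rcor1* (ENSMUSG00000037896, chr12:111039351-111115901), the founding CoREST scaffold, had 4763 and 5506 reads in the controls and 2736 and 2262 in *Eya1*cKO (142 ± 7.53 against 125 ± 5.56 CPM). Its *Eya1*cKO libraries were also the lower ones, at a log2 fold change of -0.19 ± 0.11 (edgeR adjusted *P* = 0.30). *Cdyl* (ENSMUSG00000059288, chr13:35659833-35874063), the chromodomain bridge between REST and G9a, had 1692 and 1855 reads in the controls and 1316 and 1053 in *Eya1*cKO, or 49.0 ± 0.769 against 59.1 ± 1.26 CPM. Here both *Eya1*cKO libraries were the higher ones, with a log2 fold change of 0.27 ± 0.15 that did not pass (edgeR adjusted *P* = 0.29).

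*Rcor3*, the CoREST scaffold of lowest level, gave the highest log2 fold change of the group, 0.65 ± 0.28 (edgeR adjusted *P* = 0.18), with 613 and 578 reads in the controls and 671 and 372 in *Eya1*cKO. Once scaled for depth, its *Eya1*cKO values were the higher ones in both libraries. Exons of genes on the opposite strand overlap 8.34% of its exonic length, so its reads are uncertain. The remaining members of the group, *Sin3a*, *Sin3b*, *Ncor1* and *Cdyl2*, had log2 fold changes from -0.41 (*Sin3a*) to 0.40 (*Cdyl2*). Sin3 proteins are the scaffolds of the deacetylase complex at the N-terminus of REST, and *Sin3a* and *Sin3b* differed in sign, at -0.41 and 0.22, while the NCoR scaffold *Ncor1* was at -0.02 and changed sign with library totals alone (0.02).

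**Figure D2:**
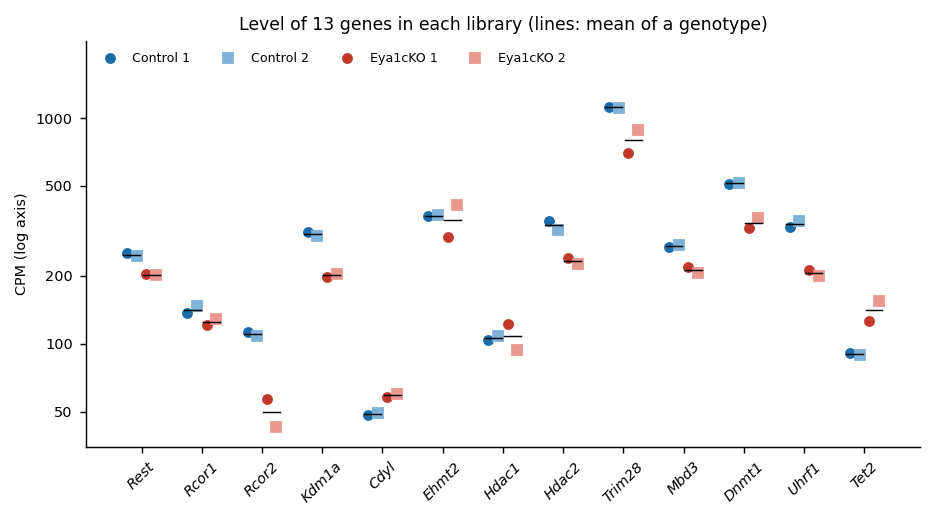
CPM (log axis) of 13 genes in each of the 4 libraries, with circles for library 1, squares for library 2 and lines at the mean of a genotype. The 2 control points nearly coincide for *Rcor2*, *Dnmt1* and *Tet2*, both *Eya1*cKO points lie below them for *Rest*, *Rcor1*, *Rcor2*, *Kdm1a*, *Hdac2*, *Trim28*, *Mbd3*, *Dnmt1* and *Uhrf1* and above them for *Cdyl* and *Tet2*, and the genotypes overlap for *Ehmt2* and *Hdac1*.

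Of the 6 genes of H3K9 methylation, *Trim28* fell and the others did not pass (4.41% of all genes tested were lower and 5.15% higher). Both *Eya1*cKO libraries lay below both controls in 4 of the 6 and above in 0 (30% and 25.3% of all genes tested). *Trim28* (ENSMUSG00000005566, chr7:12999114-13031035), the KAP1 corepressor that brings Setdb1 to zinc-finger proteins, was the most abundant of the 13 genes plotted. It had 39203 and 41434 reads in the controls and 15889 and 15582 in *Eya1*cKO, or 1115 ± 11.4 against 796 ± 131 CPM. The *Eya1*cKO libraries were lower, number 1 the more so. The log2 fold change was -0.49 ± 0.10 (edgeR adjusted *P* = 0.031). *Ehmt2* (ENSMUSG00000013787, chr17:34898469-34914052), the G9a enzyme, had 12810 and 13870 reads in the controls and 6740 and 7209 in *Eya1*cKO. In CPM that was 369 ± 2.54 against 355 ± 79.7, with *Eya1*cKO 1 below and *Eya1*cKO 2 above the controls (log2 fold change -0.07 ± 0.14, edgeR adjusted *P* = 0.80, 95% interval -0.39 to 0.26).

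The lowest and the highest of this group were the heterochromatin methyltransferases *Suv39h2* and *Suv39h1*. *Suv39h2* had 1518 and 1499 reads in the controls and 663 and 337 in *Eya1*cKO, or -0.75 ± 0.24 as a log2 fold change (edgeR adjusted *P* = 0.10). *Suv39h1* was at 0.02 ± 0.14 (adjusted *P* = 0.95). On the scale of RPKM, *Suv39h1* made up 55.6% of the pair's level in the controls and 68.8% in *Eya1*cKO. These shares depend on the exonic length used, 5270 bases for *Suv39h1* against 3116 in its longest transcript. The counts of both genes are uncertain too, since 14.6% and 9.98% of the exonic length of *Suv39h1* and *Suv39h2* overlaps exons on the opposite strand. The partner enzyme *Ehmt1* and the methyltransferase *Setdb1* lay at -0.37 and -0.34 without passing (adjusted *P* = 0.055 and 0.083).

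Of the 12 histone deacetylases only *Hdac2* passed the test (4.41% of all genes tested were lower and 5.15% higher). *Hdac2* (ENSMUSG00000019777, chr10:36974544-37001889), a class I enzyme shared by the CoREST, Sin3 and NuRD complexes, had 12252 and 11939 reads in the controls and 5444 and 3965 in *Eya1*cKO. Its level was 335 ± 22.6 against 234 ± 10.5 CPM. The genotypes did not overlap, and the log2 fold change was -0.52 ± 0.089 (edgeR adjusted *P* = 0.016). Its paralog *Hdac1* (ENSMUSG00000028800, chr4:129516104-129542713) had 3639 and 4040 reads in the controls and 2752 and 1655 in *Eya1*cKO. In CPM *Hdac1* was 106 ± 2.61 against 108 ± 19.4, with the *Eya1*cKO libraries on either side of the controls (log2 fold change 0.04 ± 0.14, edgeR adjusted *P* = 0.88, 95% interval -0.30 to 0.38).

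The level of *Hdac1* is uncertain, because 70.9% of its transcript has a near copy in the annotated transcript of the pseudogene *Gm10093*. *Gm10093* was counted with 611 and 513 reads in the controls and 209 and 240 in *Eya1*cKO, and reads recorded as not uniquely aligned were counted on no gene. The other deacetylases ran from -0.21 (*Hdac9*, class IIa) to 0.84 (*Hdac10*, class IIb). *Hdac10*, the highest log2 fold change of all 48, had 511 and 474 reads in the controls and 586 and 393 in *Eya1*cKO (0.84 ± 0.28, edgeR adjusted *P* = 0.11). After scaling, the *Eya1*cKO pair lay above the control pair. Among class IIa enzymes, which shuttle between nucleus and cytoplasm, *Hdac5* had 3419 and 3861 reads in the controls and 2644 and 2549 in *Eya1*cKO, both above the controls after scaling (0.37 ± 0.13, adjusted *P* = 0.13), as were both values of *Hdac7* (0.15 ± 0.10, adjusted *P* = 0.38). The NCoR-associated class I enzyme *Hdac3* was at 0.10, the tubulin deacetylase *Hdac6* at 0.02 and the NAD-dependent *Sirt1* at -0.13. In 7 of the 12 deacetylases the genotypes overlapped, in 2 both *Eya1*cKO libraries were below the controls and in 3 above (30% and 25.3% of all genes tested).

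None of the 8 acetyltransferases and bromodomain readers was called (4.41% of all genes tested were lower and 5.15% higher). In 4 of them both *Eya1*cKO libraries lay below both controls and in 1 both lay above (30% and 25.3% of all genes tested). The lowest was *Kat2a* (GCN5), with 4858 and 5459 reads in the controls and 2853 and 1247 in *Eya1*cKO (log2 fold change -0.50 ± 0.22, edgeR adjusted *P* = 0.19). Against the control mean, *Eya1*cKO 1 stood at -0.17 and *Eya1*cKO 2 at -1.0 on the log2 scale. The highest was its paralog *Kat2b* (PCAF), with 421 and 436 reads in the controls and 291 and 315 in *Eya1*cKO (0.35 ± 0.34, adjusted *P* = 0.54). The coactivator acetyltransferases *Ep300* and *Crebbp* lay close to 0, at -0.07 and -0.07, and their RPKM stayed near equal, with *Ep300* at 49.6% of the pair's level in the controls and 49.4% in *Eya1*cKO. The MYST-family acetyltransferases *Kat6a* and *Kat6b* were at -0.08 and 0.07. The readers of acetylated histones *Brd2* and *Brd3* were at -0.17 and -0.22.

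DNA methylation genes held calls in both directions: the maintenance genes *Dnmt1* and *Uhrf1* fell, *Tet2* rose, and 4 of the 7 did not pass (4.41% of all genes tested were lower and 5.15% higher). Both *Eya1*cKO libraries lay below both controls in 2 of the 7 and above in 3, against 30% and 25.3% of all genes. *Dnmt1* (ENSMUSG00000004099, chr9:20907209-20959888), the maintenance methyltransferase, had 17887 and 19260 reads in the controls and 7336 and 6315 in *Eya1*cKO. This was 513 ± 1.52 against 342 ± 25.0 CPM. The genotypes were well apart, at a log2 fold change of -0.59 ± 0.077 (edgeR adjusted *P* = 0.0066). *Uhrf1* (ENSMUSG00000001228, chr17:56303321-56323486), which recruits Dnmt1 to newly replicated DNA, had 11528 and 13059 reads in the controls and 4801 and 3485 in *Eya1*cKO. Its level was 339 ± 13.2 against 206 ± 9.76 CPM, and the log2 fold change of -0.72 ± 0.084 had the smallest adjusted *P* of the 48 (edgeR, 0.0045). Near copies in the annotated transcript of *Gm5648* cover 44.3% of the *Uhrf1* transcript. *Gm5648* had 160 and 174 reads in the controls and 71 and 88 in *Eya1*cKO. *Dnmt1* and *Uhrf1* are known to be expressed most in dividing cells, and the summed CPM of the 20 S phase and mitosis genes was lower in the same libraries. The part of this in their values was not tested.

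*Tet2* (ENSMUSG00000040943, chr3:133463679-133545139), which oxidises 5-methylcytosine, had 3173 and 3344 reads in the controls and 2862 and 2709 in *Eya1*cKO. In CPM it stood at 90.1 ± 1.10 against 141 ± 19.6. The *Eya1*cKO pair was clear of the control pair, number 2 being the higher, and the log2 fold change was 0.63 ± 0.13 (edgeR adjusted *P* = 0.030), which is 1.55-fold higher. *Tet1* and *Tet3* were at 0.03 ± 0.16 and 0.24 ± 0.11 without passing. The *de novo* methyltransferases *Dnmt3a* and *Dnmt3b* were at 0.03 and -0.24.

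**Figure D3:**
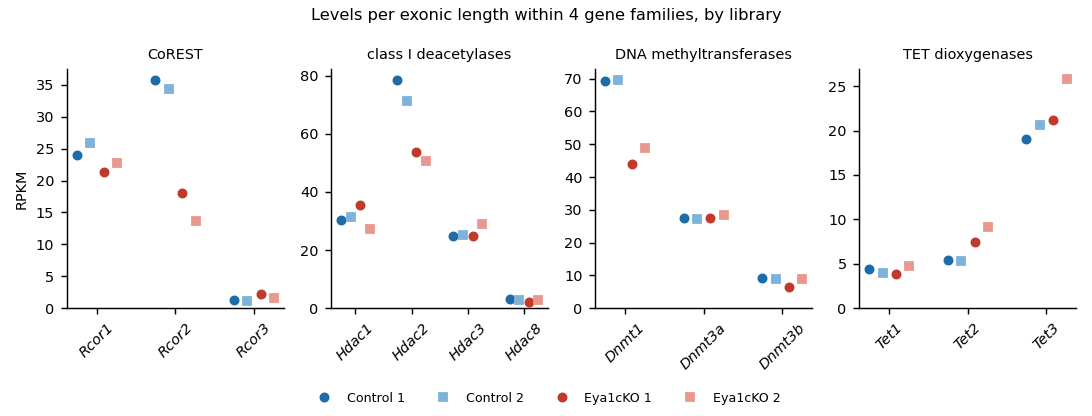
RPKM (level per exonic length, scaled to library size) of the CoREST, class I deacetylase, DNA methyltransferase and TET genes in each of the 4 libraries (linear axes from 0). *Rcor2* lies above *Rcor1* in both controls and below it in both *Eya1*cKO libraries, *Hdac2* and *Dnmt1* stay the highest of their families at a lower level, and *Tet2* moves up between *Tet1* and *Tet3*.

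Because levels of different genes can be compared only per length, the paralogs were set side by side in RPKM. The length used was that of all annotated exons of a gene, which can exceed its longest transcript. It was 16870 against 9179 bases for *Tet2* and 16642 against 9685 for *Dnmt3a*. The size of a ratio between genes depends on this choice, and its change between genotypes does not. *Rcor2* was the higher of the main CoREST pair in the controls, at 1.49 and 1.33 times *Rcor1*, and the lower in *Eya1*cKO, at 0.844 and 0.599 times. Its mean share of the CoREST family's RPKM went from 57.3% to 39.6%, with *Rcor1* going from 40.7% to 55.7%. *Hdac2* was 2.59 and 2.28 times *Hdac1* in the controls and 1.52 and 1.84 times in *Eya1*cKO. *Dnmt1* was 2.52 and 2.57 times *Dnmt3a* in the controls and 1.59 and 1.72 times in *Eya1*cKO. *Tet2* was 1.23 and 1.33 times *Tet1* and became 1.95 and 1.93 times. For each of these 4 ratios the genotypes did not overlap. Each sets a called gene over a paralog that was not called, so the separation partly restates the calls and adds no support. With 2 libraries a genotype the differences between paralogs were not tested, and a ratio that involves *Hdac1* carries its uncertainty. Of these 4 families, CoREST was the only one whose highest member differed between genotypes, since *Hdac2*, *Dnmt1* and *Tet3* were the highest of theirs in all 4 libraries.

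Of the 5 genes of methyl-CpG binding and the NuRD complex, which joins deacetylation to nucleosome remodelling, *Mbd3* fell (4.41% of all genes tested were lower and 5.15% higher). *Mbd3* (ENSMUSG00000035478, chr10:80392539-80399550), the methyl-binding-domain subunit of NuRD, had 9329 and 10271 reads in the controls and 4935 and 3608 in *Eya1*cKO, or 271 ± 5.06 against 212 ± 9.0 CPM. The genotypes did not overlap, and the log2 fold change of -0.35 ± 0.083 passed narrowly (edgeR adjusted *P* = 0.046). *Mbd2*, the paralog that recognises methylated CpG, was at 0.22 (adjusted *P* = 0.35), and *Mbd3* over *Mbd2* in RPKM was 5.35 and 5.98 in the controls and 4.25 and 3.37 in *Eya1*cKO. The lowest and highest of the group were NuRD's MTA subunits *Mta1* (-0.36 ± 0.12, adjusted *P* = 0.10) and *Mta3* (0.61 ± 0.23, adjusted *P* = 0.13). *Mta3* had 1055 and 1261 reads in the controls and 1281 and 691 in *Eya1*cKO, and *Mta2*, the third MTA subunit, was at -0.18. In all 5 genes of this group the libraries of the genotypes were apart, 3 with *Eya1*cKO below and 2 above, where 30% and 25.3% of all genes tested were so placed.

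Of the 40 genes that were not called, 29 had a 95% interval of the log2 fold change that spanned 0, and the intervals of the rest excluded it. In 21 of the 40 the interval lay within 0.5 on either side of 0. This includes intervals that exclude 0, such as that of *Rest* (-0.49 to -0.09). For 5 members the *Eya1*cKO libraries were over 0.8 apart on the log2 scale, *Cdyl2*, *Hdac4*, *Hdac9*, *Hdac11* and *Kat2a*, which were named after their values were seen. *Hdac11* had 586 and 742 reads in the controls and 612 and 103 in *Eya1*cKO, and *Cdyl2* had 266 and 259 in the controls and 109 and 275 in *Eya1*cKO. In *Hdac11*, *Hdac9* and *Hdac4* it was *Eya1*cKO 2 that lay below the controls and *Eya1*cKO 1 above, and in *Cdyl2* the reverse. For *Hdac4* and *Hdac11*, 22.4% and 17.9% of the exonic length overlaps exons on the opposite strand.

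**Figure D4:**
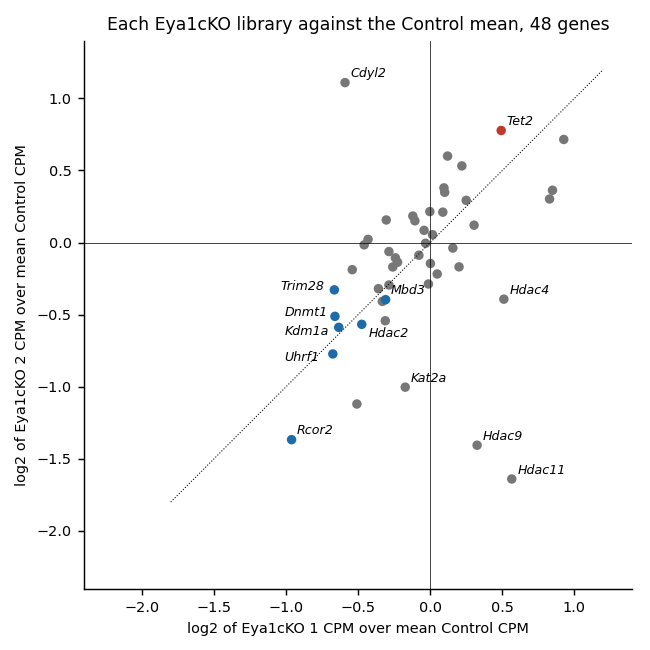
Log2 ratio of each *Eya1*cKO library's CPM to the mean Control CPM for the 48 genes, *Eya1*cKO 1 on the x axis and *Eya1*cKO 2 on the y axis, with the dotted line marking equal ratios. The 7 lower calls (blue) have both ratios below 0 and *Tet2* (red) has both above 0, and *Cdyl2*, *Hdac4*, *Hdac9*, *Hdac11* and *Kat2a* lie far from the line.

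Other genes of the same pathways were taken from lists that were not trimmed by how the genes moved. Among 28 further genes of REST and its partners, 3 were lower and 0 higher, with a median log2 fold change of -0.14. Over all genes tested, 4.41% were lower and 5.15% higher, shares that also stand beside the lists that follow. The 3 were *Bmi1*, a Polycomb subunit (-0.95 ± 0.14, edgeR adjusted *P* = 0.0099), *Rbbp4*, a histone chaperone in the Sin3 and NuRD complexes (-0.43 ± 0.081, adjusted *P* = 0.022), and the corepressor *Ctbp2* (-0.46 ± 0.11, adjusted *P* = 0.048). All 3 calls were lost with a replicate block and without either control library, and that of *Ctbp2* in 7 of the alternatives that keep all libraries, the block included. Among 30 further acetylation genes, 1 was lower and 0 were higher, and the median was -0.11. Of 25 further DNA methylation and heterochromatin genes tested, 3 were lower (*Cbx5*, *Cdk2ap1* and *Hells*), 2 were higher (*Chd3* and *Zbtb38*), and the median was -0.21. *Cbx5*, which encodes HP1α, fell by 0.53 on the log2 scale (adjusted *P* = 0.011), and *Zbtb38*, a methyl-CpG binding zinc-finger protein, rose by 0.99 (adjusted *P* = 0.014). With a replicate block 1 lower and 1 higher call remained on this list, that of *Zbtb38* being lost, and without either control library 0 remained on this or the acetylation list.

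Of 27 genes known to carry an RE1 element that were tested, 9 were higher and 1 was lower, with a median log2 fold change of 1.83. The count of higher genes changed with the processing: it was 4 with the legacy method, 5 with thinning and without a low-count filter, 14 with DESeq2's Wald test and 15 under the study's combined rule. It was 2 without either control library, where 0 were lower, and 17 or 18 without an *Eya1*cKO library. The higher genes encode neuronal and neuroendocrine proteins, and the lower gene was *Calb1*, which encodes a calcium-binding protein. The granule protein *Chga* had 44 and 52 reads in the controls and 3478 and 3001 in *Eya1*cKO (log2 fold change 6.93 ± 0.24, edgeR adjusted *P* = 5.5e-05). *Chgb*, another granin, had 68 and 190 against 4247 and 3132 (5.69 ± 0.24, adjusted *P* = 0.00011). *Calb1*, at 1954 and 1970 against 285 and 192 reads, was at -2.19 ± 0.24 (adjusted *P* = 0.0034). *Chga* is also on the list of sympathoadrenal markers, whose summed level rose in the same libraries, and *Calb1* on that of the ureteric bud. Some of these targets were singled out by the study on these samples, so their direction is not independent evidence, and the part of the sympathoadrenal markers in these values was not tested.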

How the data were processed

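RNA-seq libraries of FACS-sorted tdTomato+ kidney cells, 2 Control and 2 *Eya1*cKO, were analysed. The deposited values are raw counts per Ensembl gene: per the labels and the methods, the authors mapped reads to mm10 with HISAT2, counted them with HTSeq and tested them with DESeq2. The methods describe strand-specific libraries and counting on an Ensembl annotation. The strand setting of HTSeq and the tool versions are not given in the sources used here, so genes with exons overlapped on the opposite strand are uncertain. Their overlaps were taken from another release, GENCODE M21. Lines that name no gene (reads unaligned, ambiguous, not unique or on no feature) were left out of library sizes and tests. They made up 32.39% and 31.81% of reads recorded in the controls and 46.09% and 44.18% in *Eya1*cKO. Unaligned reads were 6.317% and 6.687% in the controls and 12.9% and 12.71% in *Eya1*cKO. Genes with a read numbered 26486 and 27091 in the controls and 21455 and 20538 in *Eya1*cKO. Labels and methods differ in how many kidneys were pooled.

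Counts were tested with edgeR 4.0.16 in R 4.3.3 (filterByExpr, minimum count 10, TMM factors from 0.9868 to 1.019, glmQLFit and glmQLFTest, legacy = FALSE), without covariates, with Benjamini-Hochberg adjustment over 19041 genes at 0.05. Each SE was obtained by dividing the size of the log2 fold change by √F. CPM used TMM-scaled totals, and RPKM the exonic length of GENCODE M21 (GRCm38), with all annotated exons of a gene merged. Near copies were matches of at least 75 bases at 97% identity or more to annotated transcripts of other genes (BLAST 2.17.0). The genome was not searched. Promoters came from RefSeq (GRCm38.p6). DESeq2 1.42.0, size factors, library totals alone, other filters, thinning, robust and legacy fits, a replicate block, the study's combined rule (adjusted *P*, or an absolute log2 fold change over 1.2 with raw *P* under 0.03) and each library left out were alternatives.

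The members and lists were chosen with earlier results of these data known. Values were given in full for called members and for *Rest*, *Rcor1*, *Cdyl*, *Hdac1*, *Hdac2*, *Kdm1a*, *Ehmt2* and *Dnmt1*, and for other members by range, naming the extremes of each role. From the other lists, up to 2 genes per direction with the smallest *P* were named, and where 5 or fewer were called the rest were named after their values were seen. *Hdac5*, *Hdac7* and other members given beyond the extremes were likewise added after their values were seen. With 2 libraries a genotype, no library could be tested as an outlier. The values of 1 gene of the further acetylation list are not reported here.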

Additional observations from a re-analysis of the deposited data

How the results depend on the processing

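With all 4 libraries, 839 genes were lower and 981 higher, and members lower were 5 to 10 over the alternatives that keep all libraries (7 as reported). Over all genes, the lower and higher counts were 1294 and 1808 with DESeq2's Wald test, 515 and 581 with the legacy method, 507 and 548 without a low-count filter, and 1416 and 1580 under the study's combined rule, and thinning left 610 higher. Members higher went to 0 with the legacy method, thinning, no filter and the replicate block. With the replicate block the counts over all genes were 263 and 358, further REST pathway genes lower 0, and further DNA methylation genes 1 lower and 1 higher. Same-numbered libraries did not deviate together (correlation 0.0062), so the numbers are not taken to pair them. Further REST pathway genes higher were 1 with DESeq2, and further acetylation genes higher were 1 with DESeq2, with 10 counts in every library and under the combined rule. RE1 genes higher were 14 with DESeq2, 15 under the combined rule, 4 with the legacy method, and 5 with thinning and without a filter. Leaving out 1 library gave 7 to 3482 genes lower and 15 to 4443 higher, members 0 to 19 lower and 0 to 6 higher, further REST pathway genes 0 to 10 and 0 to 3, acetylation 0 to 8 and 0 to 3, DNA methylation 0 to 13 and 0 to 6, RE1 genes 0 to 1 lower and 2 to 18 higher; the low ends are without a control library and the high ends without an *Eya1*cKO library. *Ncor1* changed sign with thinning (0.0013) and library totals alone (0.0186). Sign also changed with a library left out, none of these genes being called with all 4, for *Hdac9* (-1.42 to 0.302), *Ehmt2* (-0.322 to 0.146), *Dnmt3a* (-0.00022 to 0.0434), *Kat6b* (-0.0483 to 0.142), *Hdac3* (-0.0194 to 0.203), *Hdac4* (-0.405 to 0.494), *Hdac1* (-0.181 to 0.183), *Hdac6* (-0.121 to 0.141), *Cdyl2* (-0.604 to 1.10), *Hdac11* (-1.65 to 0.546), *Suv39h1* (-0.0579 to 0.0743), *Tet1* (-0.135 to 0.174), *Ep300* (-0.228 to 0.0332) and *Hdac8* (-0.444 to 0.0145). The cause of these changes was not tested. Where 1 library of a genotype remains, the spread comes from the other pair alone and the lone library is assumed to vary like it. An exact permutation test of 2 against 2 libraries cannot go below 0.333.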
